A study of Mus musculus with 9 samples.

Results

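The genes described here are 46 Myc-associated growth genes, most of which encode proteins that build ribosomes in the nucleolus. They were chosen by gene symbol, and 46 of 46 symbols were found among the 55401 rows of the deposited count table. By role, 2 are general nucleolar proteins (Ncl and Npm1), 4 belong to box C/D small nucleolar ribonucleoproteins (snoRNPs), 5 to box H/ACA snoRNPs, 7 to RNA polymerase I transcription, 7 to small ribosomal subunit assembly and 15 to large ribosomal subunit assembly. The other 6 serve polyamine and pyrimidine synthesis, iron uptake and entry into the cell cycle. All 46 passed the filter on low counts, as did 19051 genes in all.

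Ribosomes are made in the nucleolus, where RNA polymerase I transcribes a long precursor of the ribosomal RNAs. Guide RNAs packed in snoRNPs direct its chemical modification, and assembly factors then cut and fold it while ribosomal proteins are added to the small and large subunits. Myc is known as an activator of many of these genes in dividing cells, where it binds with Max at the E-box CACGTG, and the load-stressed heart muscle cell is known to make more ribosomes as it grows.

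Total RNA was sequenced from male mouse hearts, 3 in each of 3 groups. KO-TAC hearts came from mice whose floxed Myc gene (c-Myc flox/flox) was deleted by tamoxifen-inducible Cre (Tcf21 iCre), with transverse aortic constriction (TAC), an operation that narrows the aorta and raises the pressure the heart works against. TAC hearts came from wild-type mice with the same operation, and both groups carry 12 weeks in their titles. Control hearts came from wild-type mice of the sham group. Operations were done at 8 to 12 weeks of age. For the knockout line the labels give 45 mg/kg of tamoxifen over 5 days. They do not say that the wild-type mice were treated with it. A knockout without TAC and a Cre control were not analysed here, so Cre, tamoxifen and Myc deletion cannot be told apart. Tcf21 marks cardiac fibroblasts, 1 of several cell types in the tissue sequenced, and the labels give no deletion in the muscle cells. Such bulk RNA cannot tell fewer cells of a type from less RNA per cell.

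Libraries held 59702513 to 109162107 counts, of which the 46 genes took 0.118% to 0.182%. Values are given below as CPM, which are counts divided by the library's total, with TMM factors for scaling. Myc itself had 4.22, 1.87 and 4.75 CPM in KO-TAC hearts, 8.93, 6.22 and 14.2 CPM in TAC hearts and 2.15, 2.47 and 1.55 CPM in control hearts. Tcf21 had 3.89 to 4.13 CPM in KO-TAC hearts, 5.98 to 6.89 CPM in TAC hearts and 4.9 to 6.44 CPM in control hearts. The summed CPM of 14 cardiomyocyte markers was 52390, 78236 and 84439 in KO-TAC replicates 1, 2 and 3, 51280, 98584 and 17105 in the TAC hearts in the same order, and between 87814 and 90151 in control hearts, so TAC replicate 3 stood apart. For 8 activated fibroblast markers the sum was 421, 358 and 116 in KO-TAC hearts, 632, 177 and 1545 in TAC hearts and 124 to 136 in control hearts. The part of these differences in the results below was not tested.

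Promoters were searched for the E-box because it is the site Myc is known to bind. RefSeq windows of GRCm38.p6, from 250 bases before to 50 after a gene's start, matched 39 of the 46 genes, all but Fbl, Bop1, Rrp12, Srm, Rrs1, Npm1 and Ccnd2. The letters CACGTG, which read the same on both strands and were the one motif searched, stood in a window of 10 of the 39 genes (25.6%). Among 27025 genes with a window 8.09% held them, and among 12672 genes that were also tested 11.1% did. Cdk4 had 4 matches, 172, 118, 98 and 11 bases before its start, and Rrn3 had 2, at 215 and 48 bases before. The other 8 genes had 1 each, which for Nop2 lay 60 bases before the start and for Grwd1, Utp20, Pes1, Mybbp1a, Tsr1, Nle1 and Wdr43 lay 2 to 40 bases after it. Windows are printed for the genes with more than 1 match and for Ppan and Polr1a, which had the largest differences between TAC and control hearts in each direction and no match. Capitals mark the E-box, and the windows lie on the plus strand at chr10:127063285-127063584 (Cdk4), chr16:13780449-13780748 (Rrn3), chr9:20887925-20888224 (Ppan) and chr6:71908803-71909102 (Polr1a).
Cdk4: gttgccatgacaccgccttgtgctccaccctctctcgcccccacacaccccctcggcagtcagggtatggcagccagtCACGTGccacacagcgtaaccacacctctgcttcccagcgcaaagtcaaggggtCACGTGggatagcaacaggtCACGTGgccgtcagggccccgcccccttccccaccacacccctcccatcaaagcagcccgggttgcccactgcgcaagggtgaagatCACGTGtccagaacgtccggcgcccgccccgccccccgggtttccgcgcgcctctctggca
Rrn3: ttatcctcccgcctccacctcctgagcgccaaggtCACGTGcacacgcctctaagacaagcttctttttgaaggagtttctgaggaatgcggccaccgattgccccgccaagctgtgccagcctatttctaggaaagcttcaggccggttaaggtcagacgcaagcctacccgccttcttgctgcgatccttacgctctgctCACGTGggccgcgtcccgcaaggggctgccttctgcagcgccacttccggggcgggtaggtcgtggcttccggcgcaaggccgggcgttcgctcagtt
Ppan: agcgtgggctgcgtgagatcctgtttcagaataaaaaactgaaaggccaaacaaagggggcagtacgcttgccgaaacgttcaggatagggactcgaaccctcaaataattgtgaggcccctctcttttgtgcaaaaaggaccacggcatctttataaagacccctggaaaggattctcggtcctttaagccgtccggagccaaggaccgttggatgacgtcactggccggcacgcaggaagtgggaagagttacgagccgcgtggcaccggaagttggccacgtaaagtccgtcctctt
Polr1a: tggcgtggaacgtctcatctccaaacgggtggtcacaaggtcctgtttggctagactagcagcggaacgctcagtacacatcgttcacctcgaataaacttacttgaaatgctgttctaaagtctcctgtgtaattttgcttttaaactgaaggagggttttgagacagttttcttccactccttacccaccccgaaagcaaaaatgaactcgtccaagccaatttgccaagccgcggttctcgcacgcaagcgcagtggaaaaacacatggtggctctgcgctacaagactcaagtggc
A match describes letters and not binding, and no match says only that these letters are not in the window. The genes with several matches lay on opposite sides of 0, with log2 differences between TAC and control hearts of 0.37 for Cdk4 and -0.81 for Rrn3.

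Most of the 46 genes were expressed at moderate levels in the heart. Per kilobase of annotated transcript, Npm1 was highest at 54.5 CPM per kb, rank 783 of 18622 genes, and Odc1 followed at 24.1. Ncl had 22.2 CPM per kb, Nop10 20.4 and Cdk4 19.9. The lowest were Wdr12 at 1.24 CPM per kb, Heatr1 at 1.83 and Utp20 at 1.91. Ncl and Wdr12 have annotated transcripts of 8202 and 10012 bases, far longer than their coding lengths of 2121 and 1269 bases, so their level per kilobase rests on the annotation used.

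**Figure D1:**
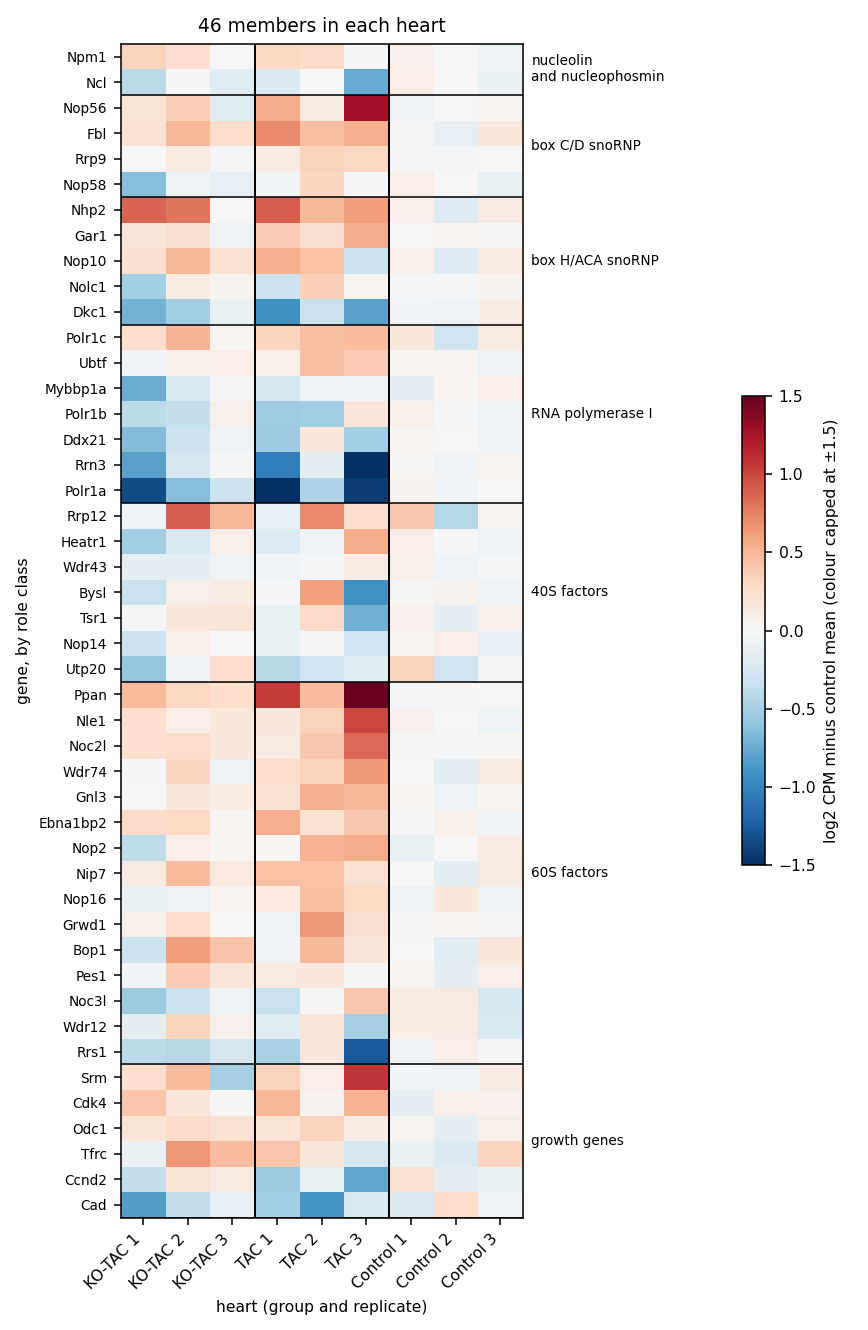
Colour gives log2 CPM minus the mean of the control hearts (no unit, capped at ±1.5) for the 46 genes (rows, by role class) in the 9 hearts (columns: KO-TAC, TAC, control). TAC replicate 3 holds the strongest red for Ppan and Nop56 and the strongest blue for Rrn3. Polr1a is bluest in TAC replicate 1, at -1.65, against -1.42 in TAC replicate 3. The control columns are nearly white.

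The comparison of TAC with control hearts asks what long pressure overload does to these genes in wild-type mice. None of the 46 passed edgeR's quasi-likelihood test at a Benjamini-Hochberg adjusted p under 0.05, and 0% of all 19051 genes did, in either direction. At an unadjusted p under 0.05 there were 8 higher and 3 lower, 17.4% and 6.52% of the 46, where all genes gave 13.2% and 8.08%. The fitted log2 difference was above 0 for 32 of 46 genes (69.6%), with a median of 0.21. Over all genes 51.5% were above 0 and the median was 0.03. In 15 genes every TAC heart was above every control heart, and in 4 every TAC heart was below, 32.6% and 8.7% of the 46. Over all genes these shares were 14.1% and 14%.

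That median changed with the tool and with the hearts included. With limma-voom and sample quality weights it was 0.04, against 0.05 over all genes, with 24 of 46 above 0. Without TAC replicate 2 it was 0.09 in the edgeR fit, with 29 of 46 above 0. DESeq2 called Ppan and Fbl higher (2 of 46, where 5.68% of all genes were called) and Polr1a lower (1 of 46, where 2.87% were). Limma-voom called 7 higher and 8 lower, where 18.2% and 19.8% of all genes were called, so the share called among the 46 was not above that of all genes. Without TAC replicate 2, edgeR called Fbl, Nop56 and Ppan higher and Dkc1, Polr1a, Rrn3 and Rrs1 lower, where 13.5% and 14% of all genes were called. DESeq2 without TAC replicate 2, an alternative added after seeing the data, called 6 higher and 6 lower, where 17.8% and 18.7% of all genes were called. Without TAC replicate 3 it called 1 higher (Ppan) and 0 lower, where 2.14% and 1.9% were called.

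KO-TAC against TAC hearts is the comparison for the fibroblast Myc knockout under load. It called none of the 46 genes by edgeR or DESeq2, and the share of all genes called by edgeR was 0%. By DESeq2 it was 0.41% higher and 0.615% lower. The log2 difference was above 0 for 19 of 46 and the median was -0.12, against 0.01 over all genes, of which 50.8% were above 0. At an unadjusted p under 0.05, 0 were higher and 1 (Ppan) was lower, where all genes gave 2.94% and 4.51%. Every KO-TAC heart was below every TAC heart for Nop58, Wdr43, Nop16 and Gnl3, which is 8.7% of the 46 and compares with 4.8% of all genes. No gene was higher in every KO-TAC heart, where 5.17% of all genes were. Limma-voom put the median at 0.00, with 23 of 46 above 0, and called Polr1a and Rrn3 higher and Ppan lower, where 3.3% and 1.93% of all genes were called. DESeq2 without TAC replicate 2 called 3 higher (Polr1a, Rrn3 and Ccnd2) and 2 lower (Nop56 and Ppan), where 13.2% and 9.96% of all genes were called. Single hearts also moved the edgeR median, to -0.06 without TAC replicate 2 (21 of 46 above 0) and -0.06 without KO-TAC replicate 1 (22 above 0). Without TAC replicate 3 the median was -0.10 and without KO-TAC replicate 2 it was -0.17, each with 13 of 46 above 0. This comparison shares the TAC hearts with the one above, so a gene that is high in TAC hearts tends to be low in it.

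KO-TAC hearts set against control hearts gave no call among the 46 by edgeR, DESeq2 or limma-voom. These tools called 0%, 0.305% and 2.4% of all genes as higher and 0%, 0.163% and 2.8% as lower. At an unadjusted p under 0.05, edgeR had 1 gene higher (Nhp2) and 0 lower, where all genes gave 3.52% and 2.24%. The median difference was 0.09, with 27 of 46 above 0 (58.7%), where all genes gave 0.04 and 53.8%. The groups did not overlap for 7 genes that were higher and 5 that were lower, 15.2% and 10.9%, where all genes gave 12.9% and 13.6%. Those higher were Fbl, Nop10, Ppan, Nip7, Noc2l, Nle1 and Odc1, and those lower Dkc1, Polr1a, Ddx21, Wdr43 and Rrs1.

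**Figure D2:**
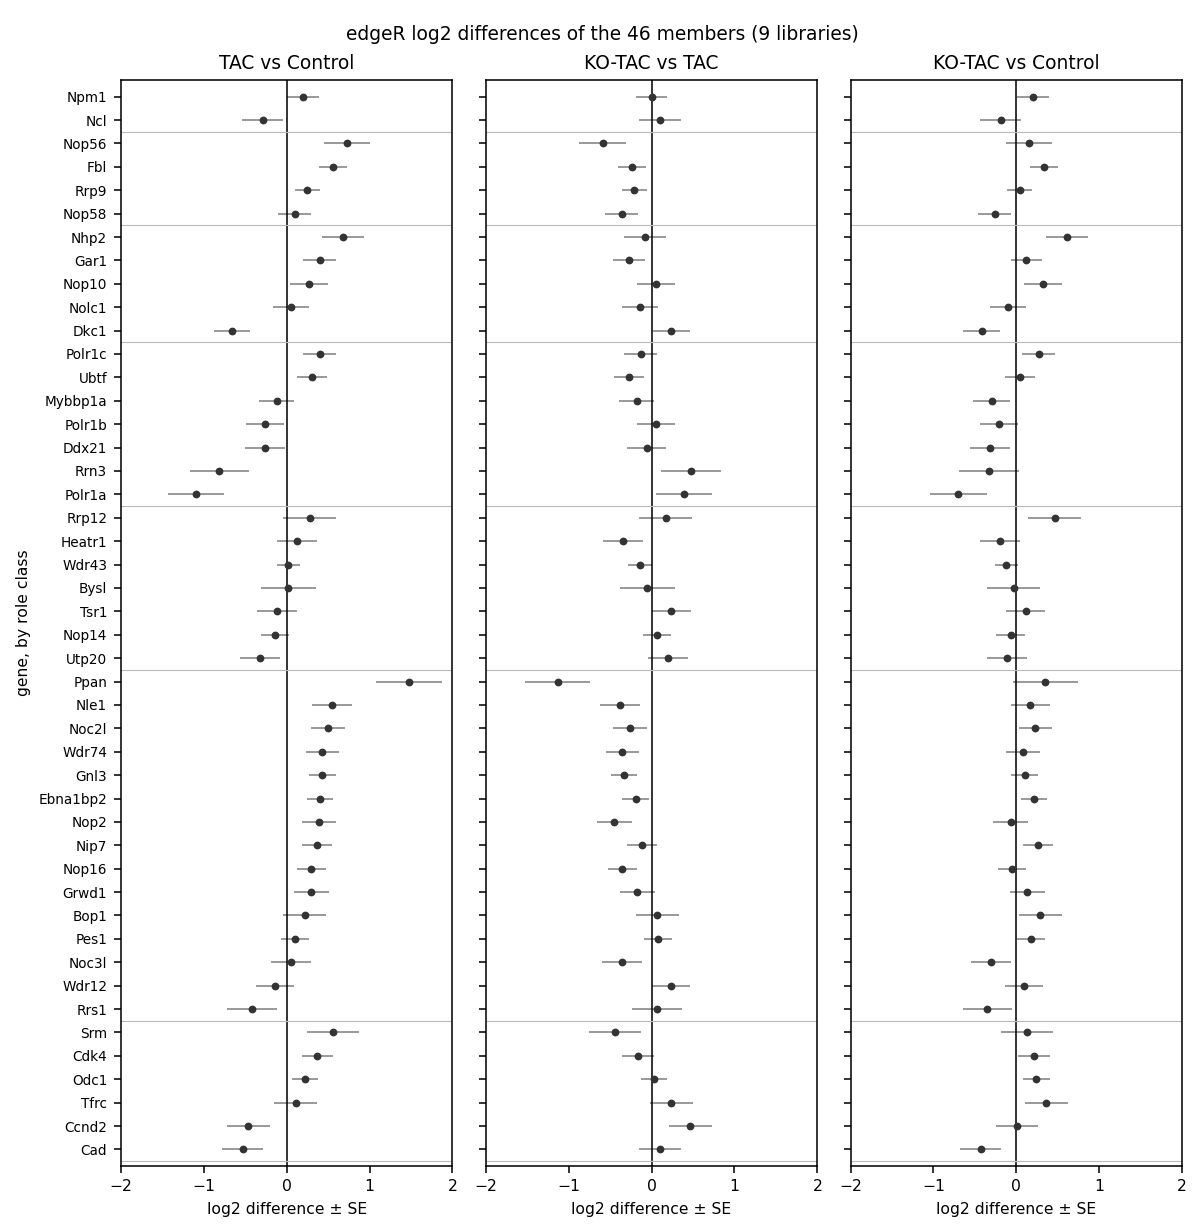
Points are edgeR log2 differences and lines their standard errors for the 46 genes (rows, by role class) in TAC vs control, KO-TAC vs TAC and KO-TAC vs control hearts, from 1 fit to 9 libraries. Ppan lies farthest right and Polr1a farthest left in the TAC vs control panel, at 1.48 and -1.09.

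Heart by heart, the genes did not move as 1 block. The median log2 CPM of the 46 relative to the control mean was -0.09, 0.17 and 0.03 in KO-TAC replicates 1, 2 and 3 and 0.00, 0.26 and 0.17 in TAC replicates 1, 2 and 3, while control hearts lay between -0.02 and 0.02. Their summed CPM overlapped among all groups, at 1154 to 1424 in KO-TAC hearts, 1257 to 1465 in TAC hearts and 1303 to 1382 in control hearts. TAC replicate 2, whose cardiomyocyte marker sum was the highest of all hearts, was the highest TAC heart for 24 of 46 genes, TAC replicate 3 for 16 and TAC replicate 1 for 6. By group mean, 17 genes ran TAC above KO-TAC above control and 11 ran in the opposite order. The shares of these orders, and of the highest TAC heart, were not counted over all genes. Neither can therefore be called a trait of the 46. The median SD of log2 CPM within a group was 0.225 for KO-TAC, 0.319 for TAC and 0.104 for control hearts over the 46 genes. Over all genes it was higher, at 0.33, 0.604 and 0.171, but the sets were not matched on expression level.

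The general nucleolar proteins showed no shared direction. Nucleolin (Ncl), which binds the ribosomal RNA precursor, had 153, 199 and 182 CPM in KO-TAC hearts, 174, 203 and 120 CPM in TAC hearts and 216, 203 and 188 CPM in control hearts. The groups overlapped, and the log2 difference was -0.29 (SE 0.25) for TAC vs control and 0.10 (SE 0.25) for KO-TAC vs TAC. Npm1, a nucleolar chaperone, was 0.20 above control in KO-TAC and 0.20 above control in TAC hearts, both with an SE of 0.19.

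Box C/D snoRNPs guide the methylation of ribose in ribosomal RNA, and their 4 proteins were all above 0 in TAC vs control hearts and all below 0 in KO-TAC vs TAC hearts. The medians were 0.41 and -0.30, and KO-TAC vs control gave 0.09. Over the 21 alternative settings the first of these medians ranged from 0.28 to 0.68 and the second from -0.40 to -0.20. In TAC vs control 3 to 4 of the 4 were above 0 over the settings, with Nop58 at -0.03 without TAC replicate 2. Of 13 other snoRNP genes, 5 were above 0 in TAC vs control (median -0.02) and 9 in KO-TAC vs TAC (median 0.09). Fibrillarin (Fbl), the methyltransferase itself, had 15.2, 18.4 and 15.6 CPM in KO-TAC hearts, 21.3, 17.8 and 18.9 CPM in TAC hearts and 12.7, 11.9 and 14.6 CPM in control hearts. Both loaded groups lay above all control hearts, and KO-TAC and TAC overlapped. For Fbl, edgeR's quasi-likelihood fit gave a log2 difference of 0.56 (SE 0.17, adjusted p = 0.15) for TAC vs control, and DESeq2 gave an adjusted p of 0.024. Nop56, a core protein of the same particle, had 29, 32.3 and 22.1 CPM in KO-TAC hearts, 37.1, 27.7 and 60.4 CPM in TAC hearts and 24.4, 25.3 and 25.7 CPM in control hearts. Its TAC mean leaned on TAC replicate 3: the TAC vs control difference of 0.73 was 0.35 without that heart and 0.95 without TAC replicate 2. Nop58, its partner, was 0.36 lower in KO-TAC than in TAC hearts (SE 0.20, edgeR adjusted p = 0.69), with KO-TAC hearts at 11.5 to 17 CPM, TAC hearts at 17.5 to 22.6 CPM and control hearts at 16.6 to 19.3 CPM. Rrp9, a snoRNP protein needed for the small-subunit RNA, stayed within 13.6 to 15.3 CPM in KO-TAC hearts, 15 to 17.5 CPM in TAC hearts and 13.7 to 14 CPM in control hearts.

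Box H/ACA snoRNPs guide pseudouridine formation, and their proteins split. Nhp2, a core protein, had 15.1, 14.5 and 8.25 CPM in KO-TAC hearts, 15.5, 11.6 and 12.8 CPM in TAC hearts and 8.69, 7.19 and 8.98 CPM in control hearts. It was high in every TAC heart and in KO-TAC replicates 1 and 2, and its log2 difference from control was 0.61 (SE 0.25, edgeR adjusted p = 0.85) in KO-TAC and 0.68 (SE 0.25, adjusted p = 0.18) in TAC hearts. Dyskerin (Dkc1), the pseudouridine synthase, went the other way, with 11.2, 12.7 and 16.9 CPM in KO-TAC hearts, 9.64, 14.5 and 10.4 CPM in TAC hearts and 17.8, 17.3 and 19.8 CPM in control hearts. Every loaded heart was below every control heart for Dkc1, with differences from control of -0.42 (SE 0.22) in KO-TAC and -0.66 (SE 0.22) in TAC hearts, and edgeR adjusted p of 0.85 and 0.16. The enzyme and its core partner therefore differed from control in opposite directions. Gar1 and Nop10, the other core proteins, were 0.40 and 0.27 higher in TAC than in control hearts, with SEs of 0.20 and 0.23. Nolc1, a chaperone of snoRNPs, had 17.8, 27.6 and 26.5 CPM in KO-TAC hearts, 20.5, 32.7 and 26.2 CPM in TAC hearts and 25 to 26.5 CPM in control hearts, and it overlapped across all groups.

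The 7 RNA polymerase I genes were mostly below control: 5 were below 0 in TAC vs control and 5 in KO-TAC vs control, with medians of -0.26 and -0.30. Of the 19 other RNA polymerase I genes, 11 were above 0 in TAC vs control (median 0.05) and 13 in KO-TAC vs control (median 0.15). Single hearts moved the class medians: TAC vs control gave -0.14 without TAC replicate 1 and -0.17 without TAC replicate 2 or 3, and KO-TAC vs control gave -0.12 without KO-TAC replicate 1 and -0.47 without KO-TAC replicate 3. With library size alone as the scaling the TAC vs control median was 0.09, where the median of all genes was 0.29. Polr1a, the catalytic largest subunit, had 25.8, 42.1 and 53.1 CPM in KO-TAC hearts, 20.9, 47.2 and 24.5 CPM in TAC hearts and 68, 63.6 and 65.4 CPM in control hearts. All 6 loaded hearts were below the 3 control hearts, and the lowest were TAC replicates 1 and 3 and KO-TAC replicate 1, the hearts with the lowest cardiomyocyte marker sums. The Polr1a log2 difference from control was -0.70 (SE 0.34, edgeR adjusted p = 0.85) in KO-TAC and -1.09 (SE 0.34, adjusted p = 0.16) in TAC hearts, and for the second DESeq2 gave an adjusted p of 0.0495. Leaving out TAC replicate 2 moved the TAC vs control difference to -1.54 with an edgeR adjusted p of 0.011. That fit called 14% of all genes lower. Without TAC replicate 1 the difference was -0.88 (edgeR adjusted p = 0.29), and without TAC replicate 3 it was -0.96 (adjusted p = 0.31).

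Rrn3, the factor that brings polymerase I to the ribosomal DNA promoter and is known to respond to growth signals, had 24.6, 36 and 42.5 CPM in KO-TAC hearts, 21.1, 39.4 and 13.4 CPM in TAC hearts and 43.6, 41.6 and 44.5 CPM in control hearts. It was thus lowest in the same hearts as Polr1a. Its difference was -0.81 (SE 0.36, edgeR adjusted p = 0.23) for TAC vs control and 0.48 (SE 0.36, adjusted p = 0.73) for KO-TAC vs TAC. The first of these became -1.33 without TAC replicate 2, with an edgeR adjusted p of 0.014, and -0.53 without TAC replicate 3. The second came to 0.19 without TAC replicate 3, so the size for Rrn3 rested on single TAC hearts. Ubtf, the upstream binding factor that opens ribosomal DNA, lay apart, with 60.9, 66.9 and 67.8 CPM in KO-TAC hearts, 67.5, 86.4 and 82.6 CPM in TAC hearts and 64.8, 65.5 and 60.1 CPM in control hearts. Polr1c, a subunit shared with RNA polymerase III, was likewise above control in every TAC heart, with 8.94 to 12.5 CPM in KO-TAC hearts, 11.1 to 12.1 CPM in TAC hearts and 7.11 to 9.82 CPM in control hearts. Their TAC vs control differences were 0.31 (SE 0.18) for Ubtf and 0.40 (SE 0.20) for Polr1c, so the subunits of 1 enzyme lay on both sides of 0. Mybbp1a, a nucleolar regulator of transcription, had 37.4, 53.6 and 62.1 CPM in KO-TAC hearts, 52.4, 60.9 and 60.1 CPM in TAC hearts and 57.3, 64.4 and 67.4 CPM in control hearts. Polr1b and the helicase Ddx21 were both 0.26 lower in TAC than in control hearts, with SEs of 0.23 and 0.24.

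**Figure D3:**
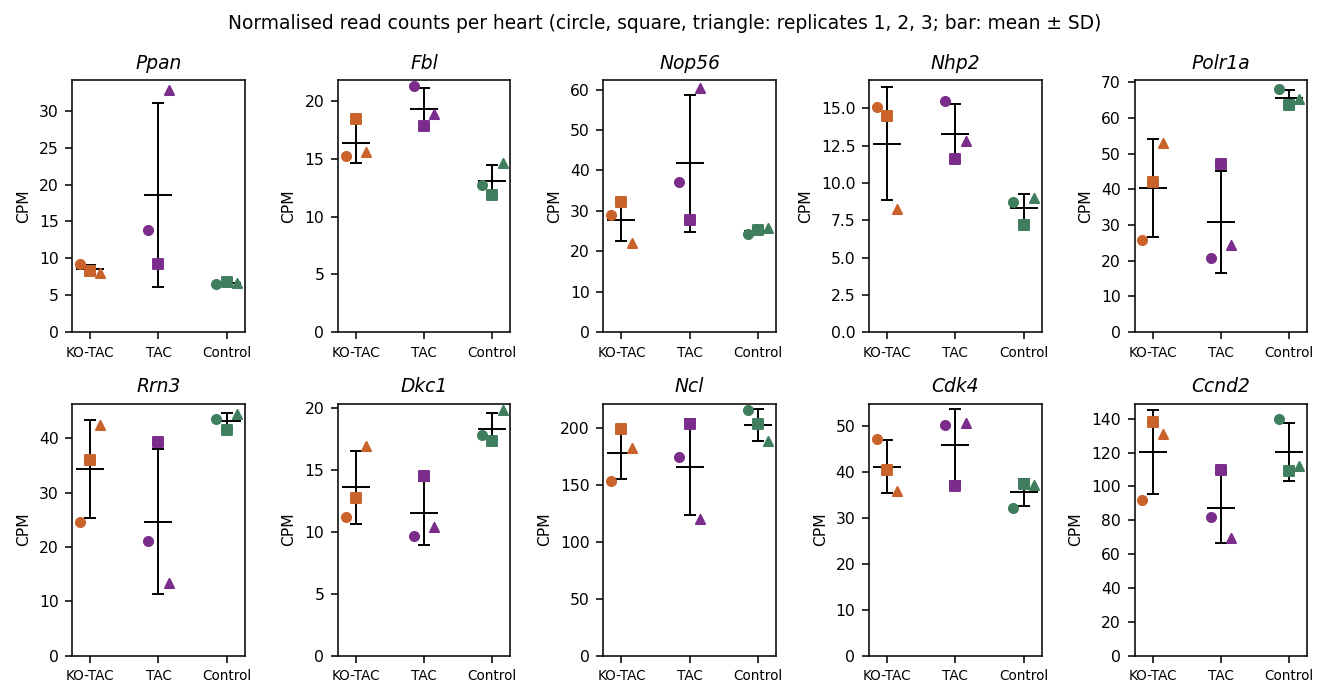
CPM of 10 of the 46 genes in each heart (circle, square and triangle for replicates 1, 2 and 3), with the mean and SD of KO-TAC, TAC and control hearts (n = 3 each). Every KO-TAC and TAC heart lies below the control hearts for Polr1a and Dkc1 and above them for Fbl and Ppan.

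The 7 small-subunit assembly factors had class medians near 0, with members on both sides of it. The medians were 0.02 for TAC vs control, 0.07 for KO-TAC vs TAC and -0.07 for KO-TAC vs control, and no gene of the 7 had TAC hearts apart from control hearts. The TAC vs control median was -0.20 without TAC replicate 2. In KO-TAC replicate 1, 5 of the 7 were below the control range. So were 21 of all 46 genes and 25 of 45 other small-subunit genes in that heart. The share over all genes was not counted. Bysl had 12.6 CPM and Tsr1 11 CPM in TAC replicate 3, against 22.4 to 24.4 CPM and 16.4 to 19.2 CPM in control hearts. Rrp12, needed for export of the maturing subunit, had 20.3, 40 and 30.3 CPM in KO-TAC hearts, 19.7, 35 and 25.7 CPM in TAC hearts and 28.3, 15.9 and 21.9 CPM in control hearts. Its range was wide in every group, and the KO-TAC vs control difference of 0.46 had an SE of 0.32 and an edgeR adjusted p of 0.86. Heatr1, a large scaffold of the early particle, had 8.76, 10.6 and 13.4 CPM in KO-TAC hearts, 10.9, 11.9 and 18.5 CPM in TAC hearts and 13.4, 12.3 and 12 CPM in control hearts. The KO-TAC vs TAC difference of Heatr1 was -0.34 (SE 0.24) and came to -0.05 without TAC replicate 3. Wdr43 varied little, at 20.2 to 21.1 CPM in KO-TAC hearts, 21.7 to 24.2 CPM in TAC hearts and 21.4 to 23.6 CPM in control hearts. Nop14, Utp20, Bysl and Tsr1 had TAC vs control differences between -0.32 and 0.02.

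The 15 large-subunit assembly factors were mostly above control in TAC hearts. In TAC vs control 13 of 15 were above 0 with a median of 0.37, in KO-TAC vs TAC 11 of 15 were below 0 with a median of -0.26, and in KO-TAC vs control 11 of 15 were above 0 with a median of 0.13. These medians kept their sign over the 21 settings, at 0.19 to 0.61, at -0.41 to -0.07 and at 0.06 to 0.37, with the smallest TAC vs control value from limma-voom. Of 41 other large-subunit factors, 19 were above 0 in TAC vs control (median -0.01), 22 in KO-TAC vs TAC (median 0.02) and 22 in KO-TAC vs control (median 0.02). No test of the class was made. Ppan, a factor for the large-subunit RNA precursor, had the largest difference of the 46 in both comparisons with TAC hearts, with 9.24, 8.29 and 7.98 CPM in KO-TAC hearts, 13.8, 9.2 and 32.8 CPM in TAC hearts and 6.57, 6.74 and 6.69 CPM in control hearts. All loaded hearts were above all control hearts, and TAC replicate 3 was far above the other TAC hearts. For Ppan that log2 difference was 1.48 (SE 0.40, edgeR adjusted p = 0.14) for TAC vs control and -1.13 (SE 0.39, adjusted p = 0.65) for KO-TAC vs TAC, and these came to 0.77 and -0.42 without TAC replicate 3. DESeq2 called Ppan higher in TAC than in control hearts with all hearts (adjusted p = 0.015), and without TAC replicate 3 (adjusted p = 0.026).

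Gnl3 (nucleostemin), a GTPase of the nucleolus, had a more even pattern, with 16.2, 18 and 17.4 CPM in KO-TAC hearts, 18.8, 23.3 and 22.8 CPM in TAC hearts and 16.5, 15.3 and 16.6 CPM in control hearts. Every TAC heart was above every KO-TAC and every control heart, and those 2 groups overlapped. For Gnl3 edgeR gave 0.43 (SE 0.16, adjusted p = 0.18) for TAC vs control and -0.33 (SE 0.16, adjusted p = 0.67) for KO-TAC vs TAC, and limma-voom, which gave 0.26 and -0.13, called neither. Noc2l, which accompanies early large-subunit particles, had 34.6, 35.2 and 32.3 CPM in KO-TAC hearts, 31.8, 38.5 and 52.3 CPM in TAC hearts and 29.4, 28.3 and 29.3 CPM in control hearts. Both loaded groups were above control for Noc2l, with 0.23 (SE 0.20) in KO-TAC and 0.50 (SE 0.20) in TAC hearts, the last of which came to 0.27 without TAC replicate 3. Nop2, a methyltransferase of large-subunit RNA, had 11.4, 16 and 15.2 CPM in KO-TAC hearts, 15.1, 21.3 and 21.9 CPM in TAC hearts and 13.7, 14.7 and 16.2 CPM in control hearts. It was 0.45 lower in KO-TAC than in TAC hearts (SE 0.21, edgeR adjusted p = 0.67) and came to 0.07 lower there under limma-voom. Nop16 had 7.66 to 8.54 CPM in KO-TAC hearts, 9.17 to 11.3 CPM in TAC hearts and 7.83 to 9.21 CPM in control hearts. The PeBoW complex of Pes1, Bop1 and Wdr12, which acts in large-subunit RNA cutting, showed TAC vs control differences of 0.10, 0.22 and -0.14, each smaller than its SE of 0.17, 0.26 and 0.23. Nle1 and Ebna1bp2 were 0.55 (SE 0.24) and 0.40 (SE 0.16) higher in TAC than in control hearts. Without TAC replicate 3 the Nle1 difference was 0.24. Rrs1, which also helps to build the large subunit, lay on the other side, 0.42 lower in TAC (SE 0.30) and 0.35 lower in KO-TAC than in control hearts (SE 0.30). Its TAC vs control difference was -0.83 without TAC replicate 2 and -0.14 without TAC replicate 3.

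Among the growth genes the differences from control had both signs. Odc1, the rate-limiting enzyme of polyamine synthesis, had 55.2, 58.4 and 56.1 CPM in KO-TAC hearts, 55, 59.9 and 51.6 CPM in TAC hearts and 49.2, 43.6 and 50.5 CPM in control hearts. Loaded hearts were above control hearts without overlap, by 0.24 (SE 0.16, edgeR adjusted p = 0.86) in KO-TAC and 0.22 (SE 0.16, adjusted p = 0.44) in TAC hearts. Srm, which makes spermidine, had 8.44, 9.85 and 5.02 CPM in KO-TAC hearts, 9, 7.64 and 14.9 CPM in TAC hearts and 6.93, 6.74 and 7.68 CPM in control hearts. TAC replicate 3 was again the highest heart, and the groups overlapped. Cad, which carries out the opening steps of pyrimidine synthesis, was below control, with 11.5, 15.8 and 18.8 CPM in KO-TAC hearts, 14.4, 11.1 and 17.4 CPM in TAC hearts and 17.5, 24.8 and 19.7 CPM in control hearts. The Cad difference from control was -0.43 (SE 0.25) in KO-TAC and -0.53 (SE 0.25) in TAC hearts, with edgeR adjusted p of 0.86 and 0.25. Tfrc, the transferrin receptor, had 25.1, 42.6 and 37.3 CPM in KO-TAC hearts, 36, 30.3 and 22.5 CPM in TAC hearts and 25, 23.2 and 33.8 CPM in control hearts, and all groups overlapped.

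The cell cycle pair differed from control with opposite signs in TAC hearts. Cdk4, the kinase with the 4 E-boxes, had 47.3, 40.4 and 35.9 CPM in KO-TAC hearts, 50.2, 36.9 and 50.8 CPM in TAC hearts and 32.2, 37.3 and 37.2 CPM in control hearts. Ccnd2, cyclin D2, which binds it, had 92.3, 138 and 131 CPM in KO-TAC hearts, 81.9, 110 and 69.6 CPM in TAC hearts and 140, 109 and 112 CPM in control hearts. Cdk4 was thus highest and Ccnd2 lowest in TAC replicates 1 and 3 and, within KO-TAC, in replicate 1. The Ccnd2 difference was -0.46 (SE 0.26, edgeR adjusted p = 0.31) for TAC vs control and 0.47 (SE 0.26, adjusted p = 0.69) for KO-TAC vs TAC, and 0.01 (SE 0.25) for KO-TAC vs control. For Cdk4 the TAC vs control difference was 0.37 (SE 0.19), and TAC and control hearts overlapped. The adjusted p was 0.29 by edgeR, 0.23 by DESeq2 and 0.016 by limma-voom, which called 18.2% of all genes higher.

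Shorter and longer genes of the group differed from control in different ways, a property looked at after their values were known. Across the 46 genes, which share libraries and are not independent, Spearman's correlation of annotated transcript length with the TAC vs control difference was -0.70, against -0.12 over 18622 genes. With coding length in place of transcript length it was -0.45. Of the 20 genes with transcripts under 2500 bases 19 were above 0 (median 0.38), whereas of the 26 longer ones 13 were (median -0.05). For KO-TAC vs control the correlation was -0.49 by transcript and -0.46 by coding length, where all genes gave -0.25. For KO-TAC vs TAC, which shares the TAC hearts, it was 0.51 by transcript and 0.20 by coding length, where all genes gave -0.04. By heart, with each gene set against the control mean, it was -0.68, -0.44 and 0.07 in KO-TAC replicates 1, 2 and 3 and -0.70, -0.51 and -0.53 in TAC replicates 1, 2 and 3. Control hearts gave 0.22, 0.11 and -0.38, so single hearts without load also held some slope. Box C/D genes had transcripts of 1197 to 1877 bases and box H/ACA genes of 1042 to 3634. Large-subunit genes ran from 1204 to 10012 bases and growth genes from 1338 to 7137. Small-subunit genes were all longer than 2500 bases, at 2702 to 8821. RNA polymerase I genes ran from Polr1c at 1314 bases to Polr1a at 9216, with Rrn3 the next shortest at 3582. Polr1c and Ubtf (4692 bases) were the genes of that class above 0 in TAC vs control. The part of length in the class differences was not tested.

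**Figure D4:**
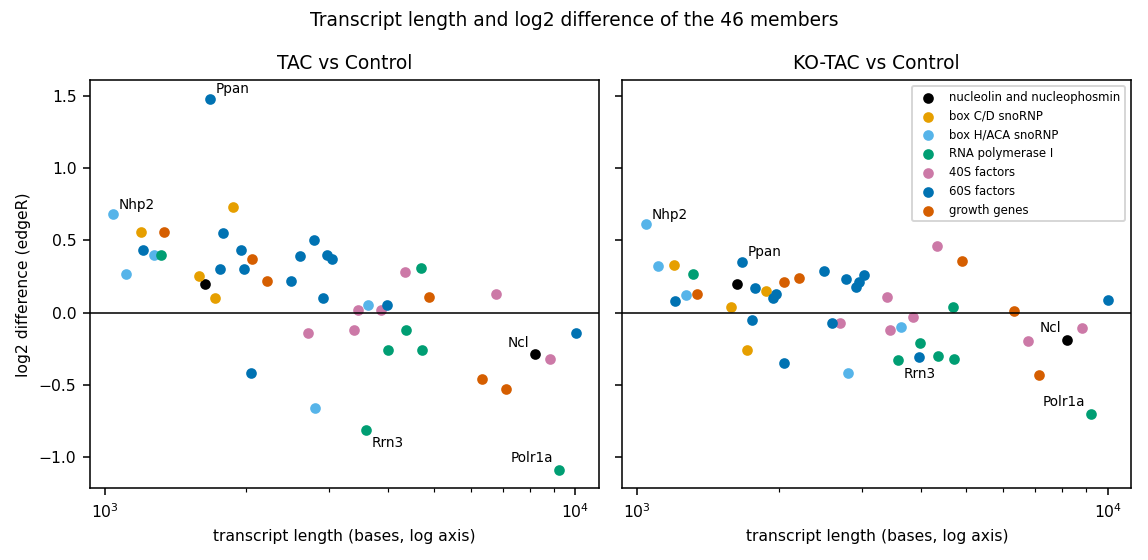
Each point is 1 of the 46 genes, with annotated transcript length in bases (log axis) against the edgeR log2 difference for TAC vs control (left) and KO-TAC vs control (right), coloured by role class. Points tend downward in both panels, from Nhp2 at 1042 bases to Polr1a at 9216 bases, with Spearman correlations of -0.70 and -0.49.

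Several of the genes also carry guide RNAs of the snoRNPs in their introns. In the GENCODE annotation of GRCm38, 9 of the 46 (19.6%) held 24 snoRNA genes within their bounds, against 270 of 21535 protein-coding genes (1.25%). Nop56 held 5, Nop58 held 4, and Ncl, Wdr43 and Gnl3 held 3 each. The exons of 20 of the 46 overlap a gene on the other strand, such as Idh3b beside Nop56, Parp3 beside Rrp9 and Ccnd3 beside Bysl, and whether the counting used strand is not stated, so reads of such pairs may have been shared.

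Other ribosome biogenesis genes lay nearer to 0. In 5 lists of 132 other such genes (snoRNP assembly, RNA polymerase I, small subunit, large subunit and RNA exosome), of which 131 were tested, 67 were above 0 in TAC vs control with a median of 0.04. KO-TAC vs TAC had 64 above 0 with a median of -0.01, and KO-TAC vs control 71 with a median of 0.03. EdgeR called none in any comparison, and at an unadjusted p under 0.05 there were 7 higher and 6 lower in TAC vs control, 0 and 1 in KO-TAC vs TAC and 3 and 0 in KO-TAC vs control. DESeq2 called 1 higher (Tsr3) and 1 lower (Ddx10) in TAC vs control. Ddx10, a helicase of small-subunit assembly, had 8.69, 9.93 and 13.6 CPM in KO-TAC hearts, 8.86, 8.73 and 9.25 CPM in TAC hearts and 14.4, 13.5 and 14.1 CPM in control hearts, so it lay on the same side as Polr1a and Dkc1. Rbm28, of large-subunit assembly, was like Ppan in that TAC replicate 3 was far above the other TAC hearts. It had 123 CPM in TAC replicate 3 and 35.4 to 36.7 CPM in the other TAC hearts, against 27.7 to 31 CPM in control hearts. The difference between the 46 and this wider set was not tested, because the 46 were named with earlier results of these data known.

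Cytosolic ribosomal protein genes, the products that these factors assemble, differed from control more evenly. Of 77 genes 76 were above 0 in TAC vs control (median 0.67) and 76 in KO-TAC vs control (median 0.53), while KO-TAC vs TAC had 22 above 0 (median -0.09). EdgeR called none of them, and DESeq2 called 27 higher in TAC vs control. By heart the median log2 CPM of these genes relative to the control mean was 0.82, 0.49 and 0.25 in KO-TAC replicates 1, 2 and 3 and 0.83, 0.29 and 0.78 in TAC replicates 1, 2 and 3. The 46 biogenesis and growth genes did not have that order, with -0.09, 0.17 and 0.03 in KO-TAC and 0.00, 0.26 and 0.17 in TAC hearts.

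**Figure D5:**
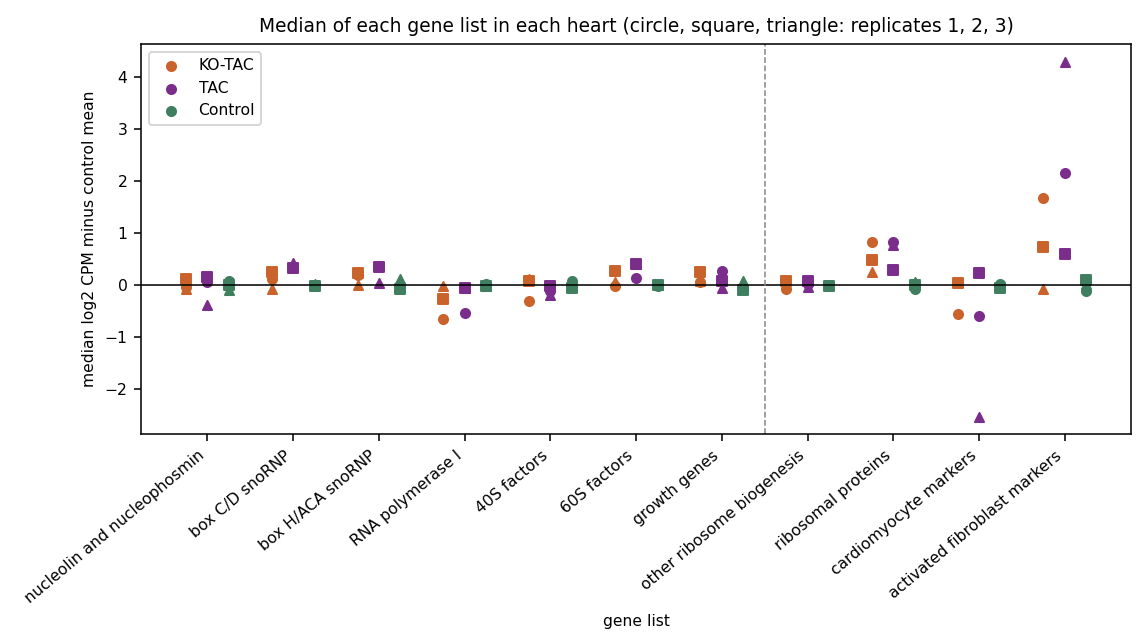
Each point is the median log2 CPM, minus the control mean, of a gene list in 1 heart (KO-TAC, TAC and control, with circle, square and triangle for replicates 1, 2 and 3). The 7 role classes left of the dashed line stay between -0.65 and 0.42, while ribosomal proteins reach 0.83 and cardiomyocyte and activated fibroblast markers in TAC replicate 3 reach -2.53 and 4.30.

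Other growth-related lists surrounded the 46 genes with differences of both signs. Of 29 other genes of nucleotide, polyamine and iron metabolism 10 were above 0 in TAC vs control (median -0.28) and 18 in KO-TAC vs TAC (median 0.20). Among 15 other cyclin and cyclin-dependent kinase genes of early cell cycle entry, their inhibitors included, 9 were above 0 in TAC vs control and 4 in KO-TAC vs TAC. Cdkn1a (p21), an inhibitor of these kinases, had 13.9, 8.49 and 16.5 CPM in KO-TAC hearts, 33.1, 35.7 and 77.9 CPM in TAC hearts and 9.11, 6.56 and 9.96 CPM in control hearts. It was called higher in TAC vs control and lower in KO-TAC vs TAC by DESeq2 (adjusted p = 7.7e-07 and 0.00092) and in neither by edgeR (adjusted p = 0.11 and 0.26). Of 12 proliferation markers 11 were above 0 in TAC vs control, and their summed CPM was 49.2, 51 and 49 in KO-TAC hearts and 60.8, 42.4 and 122 in TAC hearts, against 43.1 to 59.6 in control hearts. Immediate early genes, which tissue handling is also known to induce, had summed CPM of 426, 379 and 307 in KO-TAC hearts and 1015, 758 and 937 in TAC hearts, against 400 to 527 in control hearts, and their part in the KO-TAC vs TAC values was not tested.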

How the data were processed

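Directional NEBNext libraries were made from total heart RNA, per the labels' protocols. The authors deposited whole-number counts for each gene symbol in 9 columns, 1 per library. Builds GRCm38 and mm10 are named in the submitters' processing notes, as are DESeq2 1.42.0, StringTie 2.2.1, SAMtools 1.15, HISAT2 2.2.1 and Trim Galore 0.6.10. No source used here states the counting tool, its annotation or its strand setting.

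All 9 libraries entered 1 fit of edgeR 4.0.16 (R 4.3.3, two-sided quasi-likelihood test) with group as the term and TMM factors. Genes were kept by filterByExpr at a minimum count of 10, and p was adjusted by Benjamini-Hochberg over the 19051 genes kept, with a threshold of 0.05. The biological coefficient of variation was 42.1%. DESeq2 1.42.0 and limma-voom with quality weights (limma 3.58.1) were alternatives. The fits were also run on simulated counts with known changes. There each gene had the same spread in all groups, unlike these hearts, so that run does not show how the fits perform here. CPM use TMM factors, and log2 CPM a prior count of 2. Lengths and positions are of GENCODE's principal transcripts of GRCm38 (46 of 46 matched). Groups came from the labels. Nothing in them ties each heart to a separate mouse, so the p-values describe the spread between samples, which may be technical. Replicates of a group differed beyond sampling noise, with a chi-square of at least 26.98 per degree of freedom.

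The 46 genes, the gene lists and the rules were chosen with earlier results of these data known. Values in every heart are printed for the gene of each class with the highest mean CPM, not corrected for length, the 4 genes of smallest p on each side of a comparison, those against the sign of their class and the growth genes; other values printed were chosen after they were seen.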

Additional observations from a re-analysis of the deposited data

How the results depend on the processing

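Over 21 alternative settings (other scalings, filters and tools, the replicate number as a block, and each heart left out), the calls among the 46 genes changed in few. In TAC vs control, DESeq2 called 2 higher and 1 lower (5.68% and 2.87% of all genes) and limma-voom 7 and 8 (18.2% and 19.8%). Leaving out 1 heart from the edgeR fit gave 0 to 3 higher and 0 to 4 lower, and medians of 0.09 to 0.25. The largest counts came without TAC replicate 2, where 13.5% and 14% of all genes were called. Chosen after seeing the data, DESeq2 without TAC replicate 2 called 6 higher and 6 lower (17.8% and 18.7% of all genes) with a median of 0.10, and without TAC replicate 3 it called 1 higher (2.14% of all genes). In KO-TAC vs TAC, limma-voom called 2 higher and 1 lower (3.3% and 1.93% of all genes), and DESeq2 without TAC replicate 2 called 3 and 2 (13.2% and 9.96%). Leaving out 1 heart there gave medians of -0.17 to -0.06. In KO-TAC vs control no setting called any, and leaving out 1 heart gave medians of -0.03 to 0.11, the lowest without KO-TAC replicate 2. Scaling by library size alone moved the TAC vs control median to 0.46, with all genes at 0.29, and the KO-TAC vs control median to 0.31, with all genes at 0.28. The limma-voom median for TAC vs control was 0.04, with all genes at 0.05. The cause of these changes was not tested. Of 483 values of single named genes over the settings in each comparison, 445 (TAC vs control), 456 (KO-TAC vs TAC) and 466 (KO-TAC vs control) kept their direction and their side of the threshold. These counts are a weak measure of stability, because the main fit called 0 of all genes and most settings refit largely the same hearts.

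Same-numbered hearts of different groups deviated together with correlations of -0.44 to 0.21, and differently numbered ones with -0.64 to 0.55. The numbers, also those of the replicate block, are from the titles, and the TAC columns of the count table are numbered otherwise. By column number TAC replicates 1 and 2 would match KO-TAC replicates 2 and 3, with correlations of 0.03 and 0.54. With 3 hearts a group, such correlations cannot decide whether the numbers pair the hearts. With the replicate block edgeR called 0 genes in each comparison, and the medians were 0.19 (TAC vs control), -0.12 (KO-TAC vs TAC) and 0.09 (KO-TAC vs control).

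Precision is limited by 3 hearts a group and by the spread of the TAC hearts, and a p that misses the threshold does not show that groups are alike. Depth was not scarce for these genes, since the lowest value of any of them in any heart was 4.85 CPM (Gar1 in KO-TAC replicate 3).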
